A study of Mus musculus with 12 samples.

Results

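Hepatocyte identity is held by a small set of transcription factors that bind each other's regulatory regions and the genes of liver metabolism. The 9 genes described here encode the nuclear receptor HNF4A, the forkhead factors FOXA1, FOXA2 and FOXA3, the basic leucine zipper factors C/EBPα and C/EBPβ, the cut-homeobox factors ONECUT1 (HNF6) and ONECUT2, and the homeobox factor PROX1. Members were the table rows whose symbol is Hnf4a, Foxa1, Foxa2, Foxa3, Cebpa, Cebpb, Onecut1, Onecut2 or Prox1. Each symbol had 1 row, which gave 9 genes of the 24007 in the table. Rows without a symbol that RefSeq names as Cebpa (4), Cebpb (2) and Foxa2 (2) were left out of the values given here.

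Liver polyA RNA came from male C57/Bl6J mice that entered their diets at 4 weeks of age and stayed on them for 16 weeks. The 4 HFD+ASBTi libraries came from mice whose high-fat feed held 0.2% cholesterol (w/w) and 0.006% SC-435, a compound that blocks ASBT, the ileal carrier for bile acid uptake. The 4 HFD libraries came from mice on that high-fat, high-cholesterol diet without SC-435, and the 4 chow libraries from mice on chow. Whether every library is a different mouse is not stated in the labels. The p-values therefore reflect the spread among these libraries, part of which may be technical.

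HNF4A is a nuclear receptor required for much of the hepatocyte programme, and its gene has a downstream promoter, P1, used in adult liver, and an upstream promoter, P2, used in other tissues and in fetal liver. FOXA factors open chromatin at liver enhancers, and C/EBPα drives genes of gluconeogenesis, urea synthesis and glycogen storage. C/EBPβ is known for the acute phase response and regeneration, ONECUT factors for liver and bile duct development, and PROX1 for hepatoblast growth and as a corepressor of HNF4A.

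Promoter windows are printed for Hnf4a and Cebpa because these genes carry the results. Each runs from 250 bases before to 50 after the start site and is from RefSeq, build GRCm38.p6. The P1 promoter of Hnf4a is on the plus strand of chromosome 2 at chr2:163546905-163547204, and the row of the table that holds Hnf4a is the transcript that starts there. Capitals mark an HNF1 half-site (GTTAAT, here read on the other strand as ATTAAC) at positions -81 and -74.
Hnf4a P1: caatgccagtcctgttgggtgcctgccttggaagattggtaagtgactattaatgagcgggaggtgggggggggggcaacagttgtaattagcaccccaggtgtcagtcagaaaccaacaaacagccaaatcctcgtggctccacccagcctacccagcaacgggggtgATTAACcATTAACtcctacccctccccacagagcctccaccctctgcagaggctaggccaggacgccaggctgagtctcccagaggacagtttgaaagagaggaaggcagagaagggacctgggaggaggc
The P2 promoter lies upstream on the same strand at chr2:163506607-163506906, and capitals mark an ONECUT motif (ATTGAT or ATCGAT, here ATCAAT) at position -59.
Hnf4a P2: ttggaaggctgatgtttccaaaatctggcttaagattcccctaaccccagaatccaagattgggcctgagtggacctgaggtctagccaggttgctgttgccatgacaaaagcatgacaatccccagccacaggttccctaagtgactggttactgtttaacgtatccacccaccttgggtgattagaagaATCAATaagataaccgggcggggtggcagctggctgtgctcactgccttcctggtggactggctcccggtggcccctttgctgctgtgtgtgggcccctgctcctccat
The Cebpa promoter is on the plus strand at chr7:35119043-35119342, and capitals mark a C/EBP motif (TTGCNNAA or TTGCGNNA) at position -185.
Cebpa: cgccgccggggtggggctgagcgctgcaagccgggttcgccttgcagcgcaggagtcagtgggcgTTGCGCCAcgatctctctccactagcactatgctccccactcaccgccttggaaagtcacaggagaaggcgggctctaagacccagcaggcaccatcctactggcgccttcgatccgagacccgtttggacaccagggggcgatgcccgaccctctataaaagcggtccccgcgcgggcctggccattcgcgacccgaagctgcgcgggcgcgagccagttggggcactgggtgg

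Those letters were searched on both strands, and the HNF1 and C/EBP letters were set after the windows had been read, so a match describes a sequence and is no site. Of all 32851 RefSeq mouse promoter windows of this length, 7.10% hold the HNF1 half-site, 8.40% an ONECUT motif and 13.3% a C/EBP motif. Over 12 windows of 8 members (the ninth, Onecut2, was not used), 2 held the HNF1 half-site, 2 an ONECUT motif and 1 a C/EBP motif. A FOXA motif (TGTTTAC or TGTTTGC) stood in 2 of the 12 windows, those of Foxa1 and Prox1, against 8.48% of all windows. An HNF4 motif (CAAAGNNCA) stood in 1, a window of Foxa2, against 6.36% of all windows. No matches overlapped each other.

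Values are given as RPKM, which scales reads to the length of the transcript and the size of the library. The library totals behind them could be worked out as whole numbers, and were 8967550 to 11262826 reads for HFD+ASBTi, 10314126 to 13244195 for HFD and 10668202 to 11353338 for chow. The length behind the RPKM was that of exons and introns together, so RPKM compares 1 gene between libraries and not genes with each other. Of 6332 genes tested with limma, 766 were called in HFD against chow, 6 in HFD+ASBTi against HFD and 448 in HFD+ASBTi against chow, at a Benjamini-Hochberg adjusted p under 0.05. Higher calls made up 63.2% in HFD against chow and 67.4% in HFD+ASBTi against chow, and 51.7% and 46.4% when each library was centred on its median. The share was 33.3% in HFD+ASBTi against HFD, and none of 4 calls after centring.

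Hnf4a RNA was lower on both high-fat diets than on chow in every library, and Cebpa RNA was higher in every library. Foxa1, Foxa2, Foxa3, Cebpb, Onecut1, Onecut2 and Prox1 were not called in any of the 3 comparisons with all 12 libraries, and no factor was called between HFD+ASBTi and HFD livers. Of the 9 genes, 7 passed the filter on low values. Onecut1 and Prox1 did not, and their p-values come from the same fit with no filter.

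**Figure D1:**
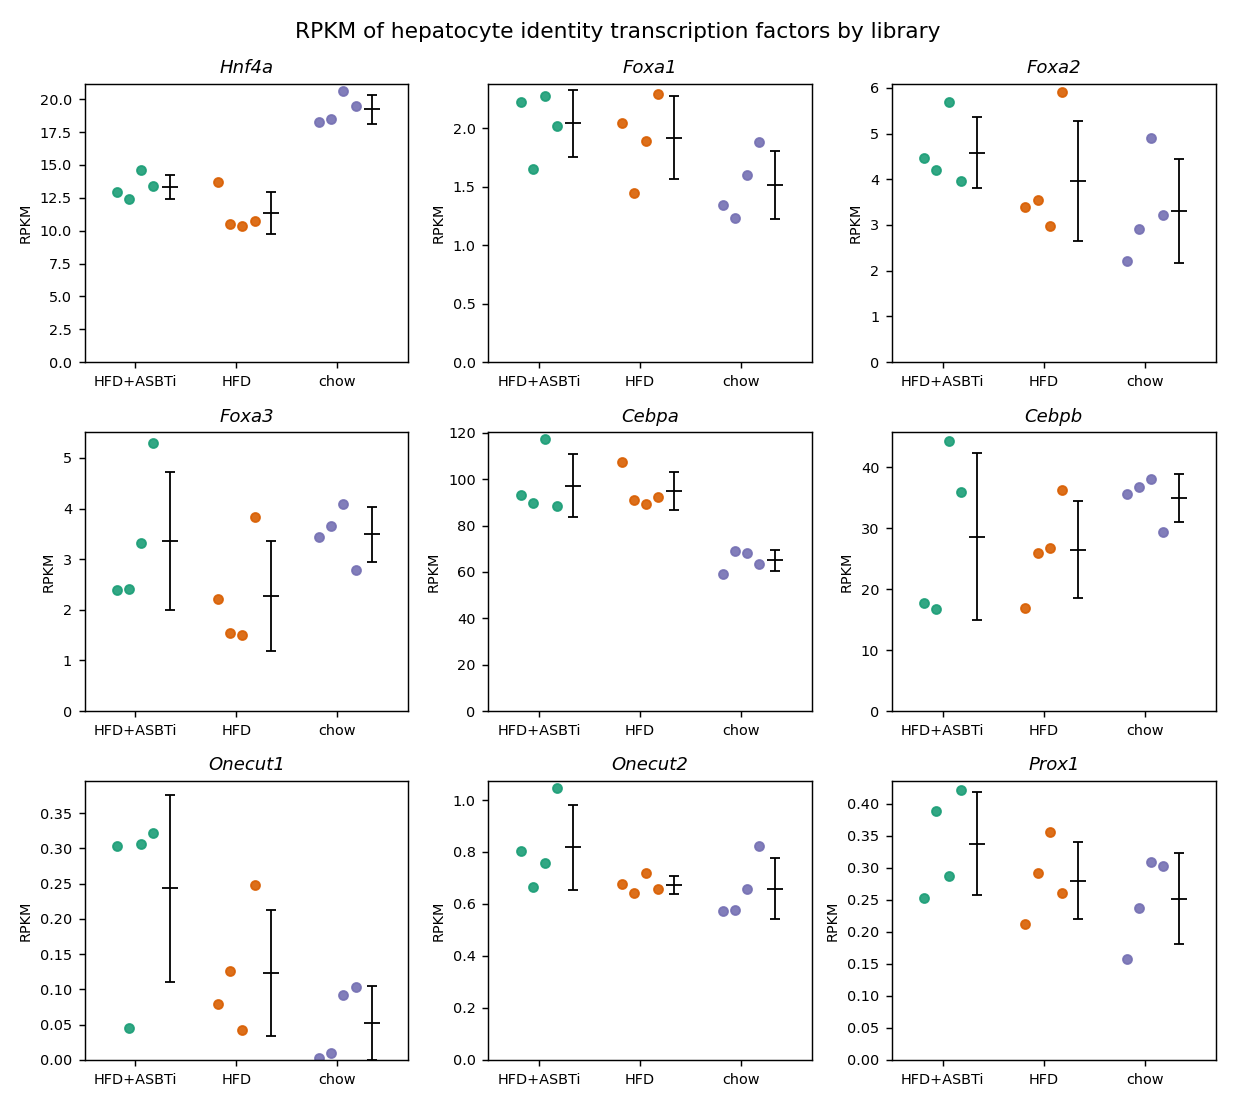
RPKM (y axis, from 0, a scale of its own per gene) of the 9 factors in the 12 libraries. Each point is 1 library, in replicate order within HFD+ASBTi, HFD and chow, and the black mark beside each group is the mean with its SD. Chow libraries stand above all others for Hnf4a and below all others for Cebpa, and the groups overlap for the other genes.

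Hnf4a stood at 12.97, 12.4, 14.6 and 13.4 RPKM in HFD+ASBTi livers, at 13.7, 10.53, 10.4 and 10.7 RPKM in HFD livers, and at 18.3, 18.5, 20.6 and 19.5 RPKM in chow livers. All 8 libraries of the high-fat diets were below the lowest chow library, and HFD 1 was the only HFD library within the range of the HFD+ASBTi libraries. The means were 13.3 ± 0.921 RPKM for HFD+ASBTi, 11.3 ± 1.60 RPKM for HFD and 19.2 ± 1.08 RPKM for chow (SD, n = 4 each). Behind them were 3164 to 3596 reads in HFD+ASBTi livers, 2794 to 3710 in HFD livers and 5070 to 6025 in chow livers.

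In HFD against chow, Hnf4a fell 1.69-fold (log2 change -0.74, SE 0.0977, 95% interval -0.96 to -0.53, limma adjusted p = 0.00126). It fell 1.44-fold in HFD+ASBTi against chow (log2 change -0.51, interval -0.73 to -0.30, limma adjusted p = 0.0152). Both calls held under every alternative run, including each of the 12 libraries left out. The log2 change in HFD+ASBTi against HFD was 0.23, with an interval of 0.02 to 0.45, an unadjusted p of 0.0372 and a limma adjusted p of 0.496, so no change was called. Without HFD 1, that value was 0.32, with a limma adjusted p of 0.196.

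The Hnf4a row is NM_008261, whose recovered length of 25720 bases matches the span of the transcript from the P1 promoter (25718 bases on GRCm38). Reads of transcripts from P2 that fall in the shared exons count towards this row too, so output of the promoters printed above could not be told apart. No gene of the GENCODE annotation used here overlaps that transcript. In bulk liver, fewer hepatocytes and less RNA per hepatocyte cannot be told apart, for this gene or any of the others.

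Cebpa, whose product restrains hepatocyte proliferation and drives metabolic genes, moved the other way. It had 93.4, 89.6, 117 and 88.4 RPKM in HFD+ASBTi livers, 107, 91.1, 89.5 and 92.2 RPKM in HFD livers, and 59.1, 69.1, 68.3 and 63.6 RPKM in chow livers. The lowest library on a high-fat diet, HFD+ASBTi 4, stood above the highest chow library. The means were 97.2 ± 13.6 RPKM for HFD+ASBTi, 95.01 ± 8.25 RPKM for HFD and 65.0 ± 4.64 RPKM for chow (SD, n = 4 each), from 1695 to 3224 reads per library.

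Cebpa rose 1.46-fold in HFD against chow (log2 change 0.54, SE 0.110, interval 0.30 to 0.79, limma adjusted p = 0.0111). It rose 1.49-fold in HFD+ASBTi against chow (log2 change 0.57, interval 0.33 to 0.81, limma adjusted p = 0.0156), and every alternative kept both calls. Between HFD+ASBTi and HFD the log2 change was 0.03, with an interval of -0.22 to 0.27 (limma adjusted p = 0.965). An antisense transcript, Gm45091, overlaps 303 bases of this intronless gene, and no stranded counting is stated, so its reads cannot be separated.

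Called members were thus 2 of the 7 tested in HFD against chow, where 12.1% of all genes tested were called. They were 0 of 7 by limma in HFD+ASBTi against HFD, with 1 at an unadjusted p under 0.05 and 0 by voom (limma on recovered reads, 0.0401% of genes called), where the share of all genes was 0.0948%. For HFD+ASBTi against chow they were 2 of 7, where it was 7.08%. Without the filter the shares of all genes were 4.04%, 0% and 1.69%. Groups did not overlap for 2 of the 9 genes in HFD against chow, with 21.3% of genes tested so placed, for 0 in HFD+ASBTi against HFD (3.98%) and for 2 in HFD+ASBTi against chow (15.8%). The 2 comparisons with chow share their chow libraries and are not independent of each other.

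**Figure D2:**
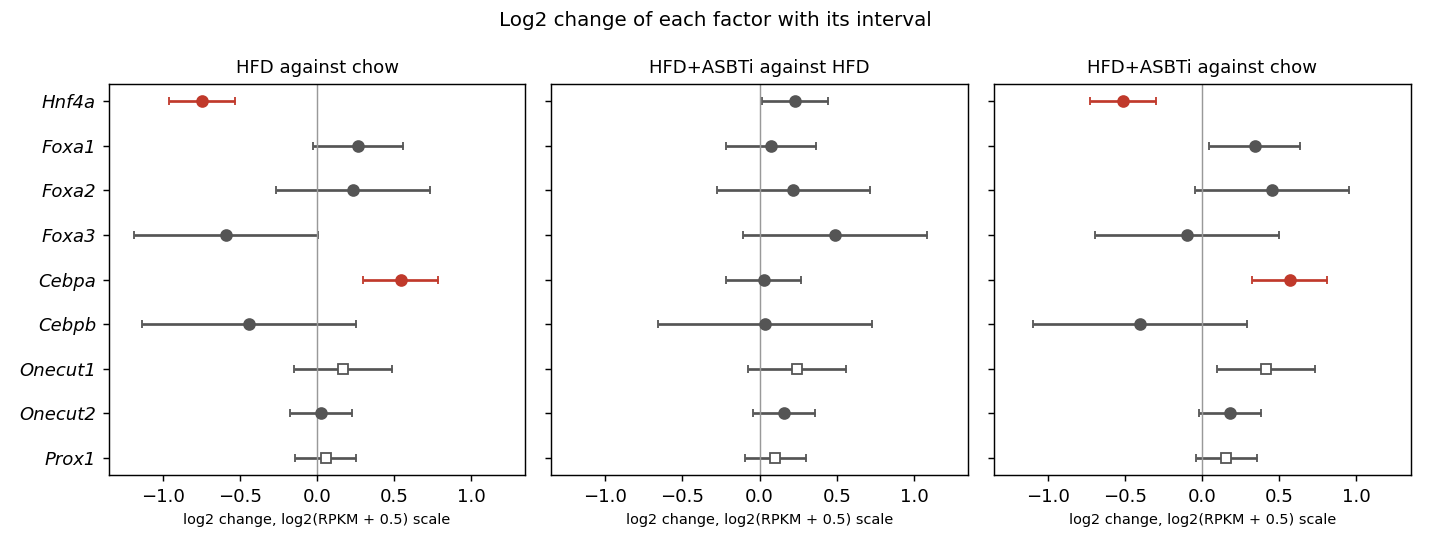
Log2 change on the log2(RPKM + 0.5) scale (x axis) of each factor (y axis) in HFD against chow, HFD+ASBTi against HFD and HFD+ASBTi against chow, with 95% intervals. Red marks an adjusted p under 0.05, and open squares mark Onecut1 and Prox1, which come from the fit with no filter. Hnf4a lies left of 0 and Cebpa right of 0 in both comparisons with chow, and no gene is red in HFD+ASBTi against HFD.

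Cebpb, the C/EBP family member known for induction in inflammation and regeneration, had the widest spread of the abundant factors. It stood at 17.7, 16.7, 44.2 and 35.9 RPKM in HFD+ASBTi livers, at 16.9, 26.0, 26.7 and 36.3 RPKM in HFD livers and at 35.6, 36.7, 38.1 and 29.4 RPKM in chow livers. The chow libraries lay close together, while HFD+ASBTi 1 and 2 and HFD 1, 2 and 3 lay below them and HFD+ASBTi 3 above them all. Its log2 change was -0.44 in HFD against chow, with an interval of -1.13 to 0.25 (limma adjusted p = 0.388), and -0.40 in HFD+ASBTi against chow, with an interval of -1.09 to 0.29 (limma adjusted p = 0.492). Between HFD+ASBTi and HFD it was 0.04, with an interval of -0.66 to 0.73 (limma adjusted p = 0.987). Tmem189, a gene on the other strand, overlaps 908 bases of Cebpb and was itself at 0.463 to 0.806 RPKM.

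Because C/EBPα and C/EBPβ bind the same sequence and can pair with each other, their balance was followed as the ratio of Cebpb to Cebpa RPKM in each library. Both genes lack introns, so the ratio is not affected by intron length. It was 0.190, 0.186, 0.377 and 0.406 in HFD+ASBTi livers, 0.157, 0.285, 0.298 and 0.393 in HFD livers, and 0.602, 0.532, 0.558 and 0.461 in chow livers. Every chow library had a higher ratio than every library of the high-fat diets. The ratio holds the Cebpa rise given above, while Cebpb alone was not called, so it is not independent of the Cebpa result. Such separation from chow was seen for 21.3% of genes tested in HFD and 15.8% in HFD+ASBTi.

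The mean log2 ratio differed by -0.99 in HFD against chow and by -0.98 in HFD+ASBTi against chow (exact two-sided permutation p = 0.0286 each, the smallest that 4 against 4 libraries allow, and 0.0429 adjusted over the 3 comparisons). The difference in HFD+ASBTi against HFD was 0.01 (exact permutation p = 1). With 1 library left out the smallest possible p is 0.0571, so no such test can pass 0.05, and the difference then ran between -1.17 and -0.73 in HFD against chow and between -1.18 and -0.80 in HFD+ASBTi against chow.

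**Figure D3:**
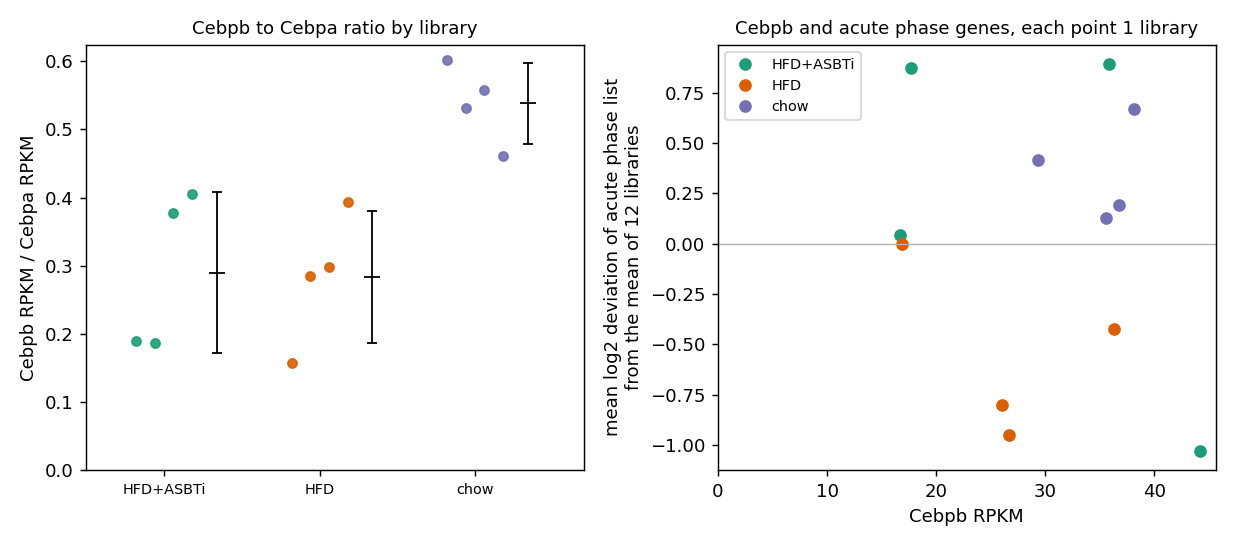
Left, the ratio of Cebpb to Cebpa RPKM in each library (y axis) for HFD+ASBTi, HFD and chow, with mean and SD beside the points. Right, Cebpb RPKM (x axis) against the mean log2 deviation of 17 acute phase genes from their mean over 12 libraries (y axis), 1 point per library. The chow ratios lie above all others, and the library with the highest Cebpb, HFD+ASBTi 3 at 44.2 RPKM, has the lowest acute phase value, -1.03. On the acute phase axis chow libraries run from 0.13 to 0.67 and HFD libraries from -0.95 to -0.00.

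The forkhead factors were less abundant and none was called. Foxa1 stood at 2.23, 1.65, 2.27 and 2.02 RPKM in HFD+ASBTi livers, at 2.05, 1.45, 1.89 and 2.297 RPKM in HFD livers and at 1.34, 1.23, 1.60 and 1.89 RPKM in chow livers. Its groups overlapped, with a log2 change of 0.26 in HFD against chow (limma adjusted p = 0.217) and 0.34 in HFD+ASBTi against chow, where the unadjusted p of 0.0265 became a limma adjusted p of 0.150. Between HFD+ASBTi and HFD the change was 0.08, with an interval of -0.22 to 0.37.

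Foxa2, which also controls bile acid and lipid genes in mouse liver, had 4.47, 4.21, 5.69 and 3.96 RPKM in HFD+ASBTi livers, 3.40, 3.55, 2.98 and 5.90 RPKM in HFD livers and 2.20, 2.91, 4.91 and 3.21 RPKM in chow livers. The highest value of each of the HFD and chow groups, HFD 4 and chow C7, stood well above its other libraries. Log2 changes were 0.23 in HFD against chow (interval -0.27 to 0.73), 0.22 in HFD+ASBTi against HFD (interval -0.28 to 0.72) and 0.45 in HFD+ASBTi against chow (interval -0.05 to 0.95), with limma adjusted p-values of 0.537, 0.799 and 0.259.

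Foxa3, a FOXA gene active in adult liver, had 2.39, 2.41, 3.33 and 5.30 RPKM in HFD+ASBTi livers, 2.22, 1.54, 1.497 and 3.83 RPKM in HFD livers and 3.44, 3.65, 4.09 and 2.79 RPKM in chow livers. HFD 1, 2 and 3 were below every chow library, while HFD 4 was not. The log2 change in HFD against chow was -0.59, with an interval of -1.19 to 0.01 (limma adjusted p = 0.178), and without HFD 4 it was -0.83 with a limma adjusted p of 0.0447, which passes the threshold. The change was 0.49 in HFD+ASBTi against HFD (interval -0.11 to 1.09, limma adjusted p = 0.615), and in HFD+ASBTi against chow -0.10 (interval -0.70 to 0.50, limma adjusted p = 0.861).

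HFD 4 also held the highest Foxa1 and Cebpb values of the HFD group. It was the deepest of the 12 libraries, at 13244195 reads, the total by which its RPKM values are divided. The part of depth in these values was not tested.

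Onecut1 had the fewest reads of the members, and its SD was 54.5% of the RPKM mean in HFD+ASBTi livers, 72.5% in HFD livers and 101% in chow livers. It was counted by 90, 14, 76 and 82 reads in HFD+ASBTi livers, by 23, 36, 14 and 91 reads in HFD livers and by 1, 3, 29 and 31 reads in chow livers. Scaled to library size these were 8.40, 1.24, 8.48 and 8.91 RPM (reads scaled by library total alone) in HFD+ASBTi livers, 2.19, 3.49, 1.16 and 6.87 RPM in HFD livers and 0.0920, 0.281, 2.55 and 2.87 RPM in chow livers. HFD+ASBTi 1, 3 and 4 stood above every chow library, and HFD+ASBTi 2 fell among the chow values.

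On the log2(RPKM + 0.5) scale, which shrinks so low a gene, the Onecut1 change in HFD+ASBTi against chow was 0.41, with an unadjusted p of 0.0156 and a limma adjusted p of 0.195. On the log2(RPM + 0.5) scale it was 2.03, with a limma adjusted p of 0.0906. In HFD against chow it was 0.17 and in HFD+ASBTi against HFD 0.24 on the RPKM scale (limma adjusted p = 0.568 and 0.784). A long noncoding gene on the same strand, Gm20649, covers 29556 of the 29861 bases of the Onecut1 span on GRCm38, so reads of either can be counted together. The length behind the Onecut1 RPKM was shorter, at 27727 bases. Onecut3, the third family member, was at 0 in all 12 libraries.

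Onecut2 stood at 0.804, 0.664, 0.756 and 1.05 RPKM in HFD+ASBTi livers, at 0.678, 0.641, 0.719 and 0.657 RPKM in HFD livers and at 0.575, 0.577, 0.659 and 0.824 RPKM in chow livers. The HFD libraries lay within the range of the chow libraries, and HFD+ASBTi 4 was the highest of the 12. The log2 change was 0.02 in HFD against chow (interval -0.18 to 0.22), 0.16 in HFD+ASBTi against HFD (interval -0.04 to 0.36) and 0.18 in HFD+ASBTi against chow (interval -0.02 to 0.38), with limma adjusted p-values of 0.897, 0.631 and 0.259.

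Prox1 had 0.254, 0.389, 0.287 and 0.422 RPKM in HFD+ASBTi livers, 0.212, 0.291, 0.356 and 0.261 RPKM in HFD livers and 0.158, 0.238, 0.310 and 0.302 RPKM in chow livers. All groups overlapped, from 84 to 214 reads per library. The log2 change was 0.05 in HFD against chow, 0.10 in HFD+ASBTi against HFD and 0.16 in HFD+ASBTi against chow (limma adjusted p = 0.782, 0.810 and 0.471 in the fit with no filter). The antisense genes Gm28172 and Prox1os overlap 964 and 419 bases of it.

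To compare genes with each other, reads were divided by the spliced length in kilobases and by the library total, as for RPM. On this scale Cebpa led in HFD+ASBTi livers at 97.7 ± 13.6, ahead of Hnf4a at 78.7 ± 5.44, and in HFD livers at 95.5 ± 8.29, ahead of Hnf4a at 67.0 ± 9.46 (SD, n = 4). In chow livers Hnf4a led at 113 ± 6.39, ahead of Cebpa at 65.4 ± 4.67. In each group the libraries of these genes did not overlap, so the first and second places were exchanged between chow and the high-fat diets.

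Below them, with the spliced lengths used here, came Cebpb, Foxa3, Foxa2, Foxa1, Onecut2, Prox1 and Onecut1 in all 3 groups. In HFD+ASBTi livers those levels were 28.9 for Cebpb, 16.9 for Foxa3, 8.81 for Foxa2, 3.51 for Foxa1, 2.93 for Onecut2, 2.09 for Prox1 and 1.71 for Onecut1. In chow livers they were 35.3 for Cebpb, 17.6 for Foxa3, 6.36 for Foxa2, 2.61 for Foxa1, 2.36 for Onecut2, 1.56 for Prox1 and 0.366 for Onecut1. Neighbours whose libraries overlapped were Cebpb with Foxa3 on both high-fat diets, Foxa3 with Foxa2 in HFD livers, Foxa1 with Onecut2 in all groups, Onecut2 with Prox1 in HFD+ASBTi livers, and Prox1 with Onecut1 on both high-fat diets. Reads within introns are included in these levels, since the whole span was counted. They can raise Hnf4a, counted over 25720 bases but divided by 4356 spliced bases, and not Cebpa, which lacks introns. How far the order of Hnf4a and Cebpa within a group rests on this was not tested. The spliced lengths are those of GRCm38. There the spans of Onecut1, Onecut2 and Prox1 (29861, 60968 and 52680 bases) exceed the lengths counted (27727, 58125 and 48902 bases). A spliced length that is too long would lower the level, so the places from Foxa1 down are uncertain.

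**Figure D4:**
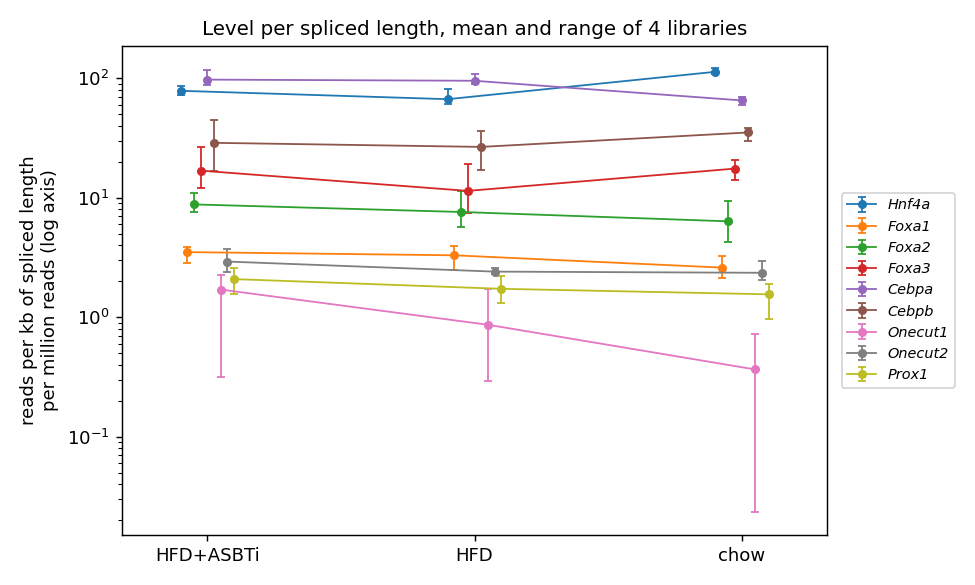
RPM per kilobase of spliced length (y axis, log scale) of the 9 factors in HFD+ASBTi, HFD and chow livers. Points are means of 4 libraries, bars run from the lowest to the highest library, and lines join the points of 1 gene. Hnf4a is above Cebpa in chow and below it in HFD+ASBTi and HFD. With the GRCm38 spliced lengths used, the order of the other genes is the same in all groups.

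Genes with the pattern most like Hnf4a were sought by the mean absolute difference of centred log2 values over the 12 libraries. They were Amigo1 (0.0716), Nrbp2 (0.107) and Emc10 (0.112), and Amigo1 had 0.779 to 1.06 RPKM in HFD+ASBTi livers, 0.692 to 1.0002 RPKM in HFD livers and 1.44 to 1.75 RPKM in chow livers. Those most like Cebpa were 3110082I17Rik (0.0887), Tst (0.0949), which encodes a mitochondrial sulfurtransferase, and Sdr39u1 (0.0977).

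Among 30 listed other liver factors, 19 were tested. In HFD against chow 3 rose, 0 fell and 16 were not called, with a median log2 change of 0.13 against 0.02 over all genes tested. With 1 library left out 1 to 5 rose (1 without chow C7), and voom on the recovered reads had 3 that rose and 1, Cux2, that fell. Ppara, the fatty acid-sensing nuclear receptor, averaged 3.91 ± 0.696 RPKM in HFD livers and 2.38 ± 0.150 RPKM in chow livers (limma adjusted p = 0.00802). Nr2f2, an orphan nuclear receptor that binds sites like those of HNF4A, rose to 2.12 ± 0.245 RPKM in HFD livers and 2.18 ± 0.157 RPKM in HFD+ASBTi livers, against 1.51 ± 0.271 RPKM in chow livers (limma adjusted p = 0.0282 and 0.0293). It was the 1 gene of the list called in HFD+ASBTi against chow, and both of its calls ended without chow 1, chow 2 or chow C7, the first also without HFD 1, 2 or 3 and the second also without HFD+ASBTi 1 or 2. Quantile normalisation and the fit with no filter each ended both calls. Centring and a fit of only the 2 groups compared each ended the second. After centring or quantile normalisation the list had 0 genes that rose and 1, Nr1i2, that fell in HFD+ASBTi against chow, and voom had 1 of each.

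Of the other 8 C/EBP and PAR leucine zipper factors, all tested, Dbp, an output factor of the circadian clock, was the only 1 called. It averaged 16.7 ± 3.89 RPKM in HFD+ASBTi livers, 22.0 ± 2.61 RPKM in HFD livers and 8.91 ± 2.80 RPKM in chow livers (limma adjusted p = 0.00560 for HFD against chow and 0.0411 for HFD+ASBTi against chow). The first of these calls held with each library left out, and the second ended for 10 of the 12. Neither of 2 tested forkhead factors of 17 listed nor of 2 tested coregulators of 15 listed was called in any comparison. Between HFD+ASBTi and HFD, 0 of the 123 tested genes of all lists but the members were called by limma, with 20 at an unadjusted p under 0.05 and 0 by voom.

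HNF4A target genes that were called in HFD against chow went in both directions. Of 24 listed and tested, 5 rose, 4 fell and 15 were not called in HFD against chow, with a median log2 change of -0.03. In HFD+ASBTi against chow 2 rose, 2 fell and 20 were not called, with a median of 0.09. After each library was centred on its median, 2 rose and 4 fell in HFD against chow, and 0 rose and 2 fell in HFD+ASBTi against chow, where quantile normalisation left 0 and 1 (Pck1). Apoc2, an apolipoprotein that activates lipoprotein lipase, rose to 26.8 ± 8.56 RPKM in HFD livers, against 10.6 ± 0.459 RPKM in chow livers (limma adjusted p = 0.00371). Gys2, the liver glycogen synthase, rose to 2.31 ± 0.498 RPKM in HFD livers, against 1.19 ± 0.182 RPKM in chow livers (limma adjusted p = 0.0126). Both calls held with each library left out.

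Pck1, which encodes the gluconeogenic enzyme PEPCK, fell to 140 ± 40.0 RPKM in HFD+ASBTi livers and 181 ± 57.8 RPKM in HFD livers, against 351 ± 35.4 RPKM in chow livers (limma adjusted p = 0.00923 for HFD+ASBTi against chow and 0.0192 for HFD against chow). The second of these calls ended without HFD 2, HFD 3, chow 1 or chow 2. Otc, of the urea cycle, averaged 2.18 ± 0.215 RPKM in HFD livers and 1.72 ± 0.0860 RPKM in chow livers (limma adjusted p = 0.0278), a call that ended after centring or quantile normalisation and without HFD 1, 3 or 4 or chow 2, C7 or 4. Over the 12 fits with 1 library left out, the list had 2 to 5 genes that rose and 0 to 4 that fell in HFD against chow, and 0 to 4 that rose and 1 to 2 that fell in HFD+ASBTi against chow.

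C/EBPα target genes that were called also lay on both sides. Of 14 tested, 3 rose, 3 fell and 8 were not called in HFD against chow, with a median log2 change of 0.04, and 1 rose, 3 fell and 10 were not called in HFD+ASBTi against chow, with a median of -0.03. Fabp1, the liver fatty acid binding protein, rose to 238 ± 48.7 RPKM in HFD+ASBTi livers and 293 ± 36.3 RPKM in HFD livers, against 104 ± 19.6 RPKM in chow livers (limma adjusted p = 0.00431 and 5.52e-04 against chow). Gys2, Pck1 and Otc stand in this list too. Tat, which encodes tyrosine aminotransferase, averaged 40.1 ± 19.6 RPKM in HFD+ASBTi livers and 102 ± 30.5 RPKM in chow livers (limma adjusted p = 0.0455), a call that ended for 8 of the 12 libraries left out. With 1 library left out 2 to 3 of the list rose and 0 to 4 fell in HFD against chow, and 1 rose and 1 to 3 fell in HFD+ASBTi against chow.

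With all 12 libraries, FOXA target genes that were called were all lower on the high-fat diets. Of 13 tested, 0 rose, 4 fell and 9 were not called in HFD against chow, with a median log2 change of -0.13, and 0 rose, 5 fell and 8 were not called in HFD+ASBTi against chow, with a median of -0.37. Tdo2, which encodes the tryptophan-degrading dioxygenase, fell to 19.1 ± 2.82 RPKM in HFD+ASBTi livers and 20.1 ± 2.45 RPKM in HFD livers, against 35.8 ± 1.61 RPKM in chow livers (limma adjusted p = 0.00199 and 0.00170 against chow), with each library left out as well. Igfbp1, an insulin-repressed binding protein of growth factors, averaged 5.43 ± 2.11 RPKM in HFD+ASBTi livers, 7.54 ± 5.97 RPKM in HFD livers and 30.7 ± 22.8 RPKM in chow livers. Its calls (limma adjusted p = 0.0408 and 0.0405 against chow) ended for 8 and 7 of the 12 libraries left out. Pck1 and G6pc, a pair shared with both lists above, and Tat make up the rest. The G6pc call ended for 3 of the 12 libraries left out in HFD against chow and for 10 in HFD+ASBTi against chow. Both G6pc calls ended with no filter, and the second also after quantile normalisation. With 1 library left out, 0 to 1 of this list rose and 1 to 5 fell in HFD against chow. In HFD+ASBTi against chow 0 rose and 2 to 5 fell.

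Acute phase genes, known targets of C/EBPβ, were lower in HFD than in chow livers where called. Of 17 tested, 0 rose, 5 fell and 12 were not called in HFD against chow, with a median log2 change of -0.65, and none was called in HFD+ASBTi against chow (median -0.20) or in HFD+ASBTi against HFD (median 0.51). Fga, the fibrinogen alpha chain, fell to 185 ± 35.8 RPKM in HFD livers, against 352 ± 38.8 RPKM in chow livers (limma adjusted p = 0.0126), and kept this call with each library left out. Fgb, Fgg and Crp, which encode the other fibrinogen chains and C-reactive protein, moved by -0.71, -0.68 and -0.48 on the log2 scale (limma adjusted p = 0.0257, 0.0289 and 0.0263). Calls of Fgb, Fgg and Crp ended for 5 of the 12 libraries left out and with no filter, that of Crp also after quantile normalisation. The list had 1 to 8 genes that fell with 1 library left out (1 without chow C7).

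Cebpb and the acute phase genes were also set side by side in each library. The mean log2 deviation of the 17 genes was 0.87, 0.05, -1.03 and 0.89 in HFD+ASBTi livers, -0.00, -0.80, -0.95 and -0.42 in HFD livers, and 0.13, 0.19, 0.67 and 0.41 in chow livers. HFD+ASBTi 1 and HFD+ASBTi 4 had like acute phase values with 17.7 and 35.9 RPKM of Cebpb, and HFD+ASBTi 3, with the most Cebpb, had the lowest. Chow libraries, at 29.4 to 38.1 RPKM of Cebpb, had acute phase values of 0.13 to 0.67. HFD libraries, at 16.9 to 36.3 RPKM of Cebpb, had values of -0.95 to -0.00. A relation between Cebpb and these genes was not tested.

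**Figure D5:**
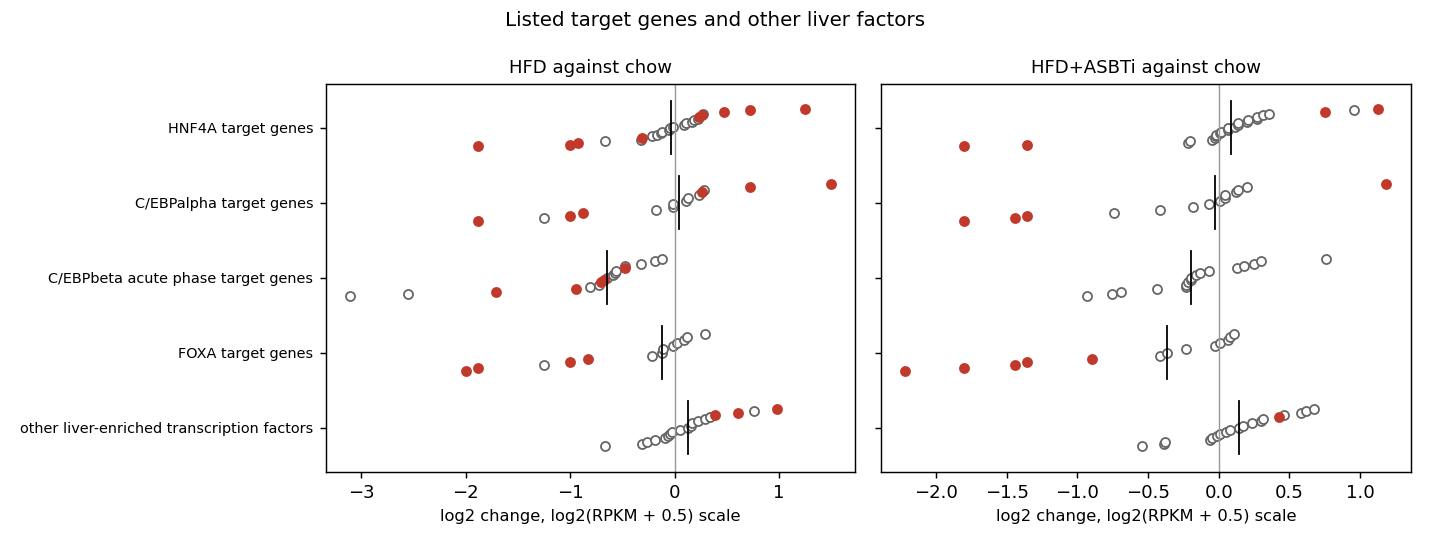
Log2 change on the log2(RPKM + 0.5) scale (x axis) of each tested gene of 5 lists (y axis) in HFD against chow, left, and in HFD+ASBTi against chow, right. Red points have an adjusted p under 0.05, open points do not, and the vertical line in each list is its median. Red points lie on both sides of 0 for HNF4A and C/EBPα targets, on the lower side for FOXA and acute phase genes, and on the higher side for other liver factors. After centring or quantile normalisation no HNF4A target and no other liver factor was called higher in HFD+ASBTi against chow.

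Markers of hepatocytes and of other cells were read beside these results. The 20 hepatocyte markers summed to 4601 to 5023 RPKM in HFD+ASBTi livers, 4094 to 6413 RPKM in HFD livers and 4953 to 5423 RPKM in chow livers. Their mean log2 deviation was -0.15 to 0.02 in HFD+ASBTi livers, -0.29 to 0.04 in HFD livers and 0.12 to 0.30 in chow livers. Every chow library was thus above all others. The median log2 change was -0.25 in HFD against chow and -0.16 in HFD+ASBTi against chow, against 0.02 and 0.03 over all genes tested. Of the 20, 0 rose and 4 fell in HFD against chow (Tdo2, Fga, Fgb and Cps1). With 1 library left out 2 to 7 fell, voom had 6, and the Cps1 and Fgb calls ended for 8 and 5 of the 12 libraries. Tdo2 and Tat fell in HFD+ASBTi against chow. The 18 genes of immature hepatocytes and bile duct cells summed to 4.99 to 7.18 RPKM in HFD+ASBTi livers, 4.30 to 13.2 RPKM in HFD livers and 4.09 to 4.78 RPKM in chow livers, and the 1 tested was not called. By voom, which tested 7, Afp and Krt23 rose in HFD against chow, with a median log2 change of 0.86 over the 7 against 0.06 over all genes, and none was called in HFD+ASBTi against chow. The 7 red cell markers summed to 147 to 287 RPKM in HFD+ASBTi livers, 168 to 301 RPKM in HFD livers and 28.8 to 139 RPKM in chow livers. The 9 adipose markers summed to 86.1 to 185 RPKM in HFD+ASBTi livers, 66.5 to 143 RPKM in HFD livers and 50.1 to 61.8 RPKM in chow livers. Most of this sum was Car3, at 79.6 to 176 RPKM in HFD+ASBTi livers, 53.2 to 126 RPKM in HFD livers and 44.1 to 55.1 RPKM in chow livers. Adipoq and Lep reached at most 0.161 and 0.0142 RPKM in any library, so the sum is no measure of adipose tissue. Of the 5 tested in each of these 2 lists, 4 red cell and 3 adipose markers (Lipe, Cidec and Cfd) rose in HFD against chow. In HFD+ASBTi against chow 4 and 2 rose (0 to 4 and 0 to 3 with 1 library left out). The part of any of these markers in the Hnf4a and Cebpa results was not tested.

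Of 9 tested macrophage markers 1, Cd68, rose in both comparisons with chow, calls that each ended for 4 of the 12 libraries left out, and of the 10 stellate and 10 endothelial markers none of the 2 and 3 tested was called. No lymphocyte marker passed the filter, with sums of at most 0.837 RPKM in any library. Of 10 pancreas and intestine markers 6 were at 0 in all libraries, namely Cela3b, Prss2, Cpa1, Pnlip, Amy2a5 and Fabp6, and the 2 tested, Fabp2 and Cela2a, rose in both comparisons with chow. Arntl, a clock gene with low values in all libraries, was at 0.0586 RPKM in chow C7, against 0.0123 to 0.0191 RPKM in chow 1, 2 and 4. It also differed within HFD+ASBTi, at 0.0289, 0.0358, 0.00627 and 0.00509 RPKM in HFD+ASBTi 1, 2, 3 and 4. In HFD 1, 2, 3 and 4 it was 0.00357, 0.0100, 0.00622 and 0.00354 RPKM, each below every chow library. The cause of these differences was not tested. Without chow C7, Hnf4a and Cebpa were still called in both comparisons with chow.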

How the data were processed

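The authors' deposited table gives RPKM for 33763 RefSeq transcripts in 12 liver libraries, 4 per group. Bowtie 0.12.7 and build mm9 are named in the submitters' processing notes, while counter and annotation are not. The column headed C7 stands under chow but matches no sample label, and is called chow C7. Rows without a symbol (2605) were named through the RefSeq table of GRCm38.p6 where it held them (2589), and 48 symbols had turned into dates. For each gene the row with the highest mean was kept, and the members' rows carry the symbol itself.

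Library totals and transcript lengths were recovered as the whole numbers that make RPKM whole reads within 1e-05 of a read, for 17394 of 17394 genes above 0 in at least 3 libraries. Reads are listed for each overlapping transcript. The main test was limma 3.58.1 with a mean-variance trend in R 4.3.3 on log2(RPKM + 0.5), for genes of at least 0.5 RPKM in at least 4 libraries, all 12 libraries in 1 model, two-sided, with Benjamini-Hochberg adjustment. Fold changes on this scale understate those of low genes. The Cebpb to Cebpa ratio had exact permutation tests (scipy 1.17.1). Alternatives changed the pseudocount, the filter, the scaling, the row choice, the trend, the groups in the fit and the libraries. The voom fit on recovered reads (genes of at least 10 reads in at least 4 libraries) was added after seeing the data, since a count model cannot be the main test of RPKM. The test was checked on simulated data. Tables and plots used Python 3.11.15, pandas 2.3.3, numpy 2.4.6 and matplotlib 3.10.9.

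The members, gene lists and motifs were chosen with earlier results of these data known. Genes named beside the members are up to 4 called genes per list and comparison by adjusted p, and the 3 genes nearest in pattern to each called member. A called gene of the list of other liver factors is not reported here by name. Promoter windows and overlapping genes come from RefSeq and GENCODE on GRCm38, and no coordinates of the mm9 files are used.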

Additional observations from a re-analysis of the deposited data

Results flagged for a closer look

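Of 30 groups of 4 values checked for a library far from the others (9 genes and the Cebpb to Cebpa ratio, in 3 groups each), 3 stood out, where chance gives about 1 in 20. Hnf4a in HFD 1 was 13.7 RPKM, above the 10.4 to 10.7 RPKM of the other HFD libraries. Cebpa was also highest among HFD libraries in HFD 1, at 107 RPKM, against 89.5 to 92.2 RPKM in the others. Onecut1 in HFD+ASBTi 2 was 0.0448 RPKM, from 14 reads, below the 0.303 to 0.321 RPKM of the other HFD+ASBTi libraries. Without HFD 1, Hnf4a and Cebpa were still called in HFD against chow.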

How the results depend on the processing

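Hnf4a and Cebpa kept their calls and directions in both comparisons with chow under all 23 alternatives run for each. Hnf4a ran from -0.83 to -0.70 in HFD against chow (limma adjusted p 3.62e-04 to 0.00660) and from -0.56 to -0.48 in HFD+ASBTi against chow (0.00511 to 0.0406). Cebpa ran from 0.48 to 0.60 (0.00442 to 0.0354) and from 0.48 to 0.61 (0.00984 to 0.0469). Foxa3 in HFD against chow passed the threshold without HFD 4. Of 630 values of members under alternatives, 14 changed sign, and none of those was called. In HFD against chow they were Onecut2 centred on medians (-0.0049), quantile normalised (-0.0013) and without chow 1 or chow 2 (range -0.011 to 0.089 with 1 library left out), and Prox1 without chow 1 (-0.0077 to 0.098). Between HFD+ASBTi and HFD they were Cebpa quantile normalised (-0.0080) and without HFD+ASBTi 3 or HFD 3 (-0.067 to 0.086), Cebpb without HFD+ASBTi 3, HFD+ASBTi 4 or HFD 1 (-0.21 to 0.25), and Foxa1 without HFD 2 (-0.024 to 0.15). For HFD+ASBTi against chow it was Foxa3 without HFD+ASBTi 1 or 2 (-0.32 to 0.017).

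Counts of called genes moved more than those of members. In HFD against chow they were 1320 on the RPM scale and 1231 by voom, which test more genes, and 448 to 864 with 1 library left out (482 without HFD 2, 475 without HFD 3, 487 without chow 1 and 448 without chow 2). The 6 calls of HFD+ASBTi against HFD were 2 with a pseudocount of 1, 0 with no filter, 1 with a mean of at least 1 RPKM, 2 without a trend, 3 with only those groups fitted, and 0 to 9 with 1 library left out. In HFD+ASBTi against chow they were 750 on the RPM scale and 140 to 523 with 1 library left out (246 and 229 without HFD+ASBTi 1 and 2, and 224, 140, 233 and 275 without chow 1, 2, C7 and 4). The cause was not tested.

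With the replicate number as a block, HFD+ASBTi against HFD had 3 called genes and no called member. The labels do not tie equal numbers to each other, deviations of same-numbered libraries correlated across genes at 0.0399 to 0.0694, and 1 of 4 correlated best with its own number. The chow labels share 1 number and could not be blocked.

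The Cebpb to Cebpa ratio differed by -1.17 to -0.73 in HFD against chow and by -1.18 to -0.80 in HFD+ASBTi against chow with 1 library left out, where the exact permutation p cannot go below 0.0571. Between HFD+ASBTi and HFD it ran from -0.25 to 0.19 and changed sign without HFD+ASBTi 3, HFD+ASBTi 4 or HFD 1. Depth limits Onecut1, whose reads per library ran from 1 to 91.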
